A study of Mus musculus with 23 samples.

Results

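Messenger RNAs of the cytosolic ribosomal proteins were followed in mouse tibialis anterior muscle. The members were the protein-coding genes whose symbol starts with Rpl or Rps and a number, together with Rplp0, Rplp1, Rplp2 and Rpsa, leaving out the Rps6 kinases and pseudogenes. These were 84 of the 14500 genes measured, spread over 19 chromosomes. By symbol 50 belong to the large subunit and 33 to the small subunit, and 1, Rps19bp1, encodes a partner of Rps19 and is no subunit. The symbol rule leaves out ribosomal proteins with other names, and the values of Fau and Rack1 are given beside the members.

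The muscles came from female C57BL/6 mice fed ad libitum and were snap frozen at ZT0 or ZT12, the start of the light and of the dark phase, and total RNA gave 23 libraries. 6-OHDA, a toxin that is taken up by and destroys sympathetic nerve endings, had been injected into the tibialis repeatedly at 50 mg/kg under anaesthesia, dissolved in ascorbic acid, followed by weeks of recovery. Sham muscle received no injection, so 6-OHDA, its solvent and the needle cannot be told apart. RE-RE mice carry Bmal1(stopFL/stopFL), Syt10-Cre(-/tg) and Hsa-Cre(-/tg), a Bmal1 gene silenced by a stop cassette that Cre removes: Syt10-Cre acts in neurons, those of the central clock among them, and Hsa-Cre in skeletal muscle fibres, so the other cells of the muscle are left without the clock gene. Sham muscle of wild-type (WT) mice aged 12 to 18 weeks gave 4 libraries at ZT0 and 3 at ZT12, and injected muscle of WT mice aged 12 to 16 weeks gave 4 at each time. Sham muscle of RE-RE mice aged 10 to 11 weeks and injected muscle of RE-RE mice aged 12 to 18 weeks gave 2 libraries at each time. The labels do not state which libraries share a mouse, so p-values measure the spread between these libraries only.

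Ribosomal proteins assemble with ribosomal RNA into the large subunit, which joins amino acids, and the small subunit, which reads the messenger. Their messengers carry a start of C and T bases (a terminal oligopyrimidine or TOP start) through which mTOR controls their translation as a group, and they are usually made in matched amounts. Skeletal muscle replaces one subunit by a paralog: Rpl3l stands in for Rpl3 in mature fibres of heart and skeletal muscle, while Rpl3 is the form of other cells and is known to return in growing or regenerating muscle.

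Rpl3 (chr15:80077791-80091868, minus strand) and Rpl3l (chr17:24727820-24736143, plus strand; both GRCm38) are 2 forms of one subunit, and their coding sequences show how far reads of one can be told from reads of the other. The first 60 coding bases are shown, from the start codon, with the 13 bases that differ between them in capitals.
Rpl3: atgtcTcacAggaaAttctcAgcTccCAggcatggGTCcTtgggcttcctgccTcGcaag
Rpl3l: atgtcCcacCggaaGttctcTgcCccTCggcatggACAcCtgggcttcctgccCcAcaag
Over the 1209 aligned coding bases 74.2% were identical. No stretch of 100 bases of the Rpl3l messenger (0%) recurred in another gene, while 79.4% of those of Rpl3 recurred in 1 or more of 7 processed pseudogenes.

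Promoters are shown because most members had similar differences after injection. RefSeq windows on GRCm38.p6 were matched for 64 of the 84 members. Each line gives 85 bases before the start and 15 from it on, 5′ to 3′, for 2 members that were lower after injection in WT muscle (Rpl38, Rps24), for 2 whose values in RE-RE sham muscle differed from those of most members (Rplp2, Rps9) and for the muscle form Rpl3l. Capitals mark the motif CCGGAAG, a site of ETS-family factors, and the longest run of C and T near the start.
Rpl38: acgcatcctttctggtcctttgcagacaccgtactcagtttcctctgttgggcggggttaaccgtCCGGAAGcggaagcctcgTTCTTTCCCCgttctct
Rps24: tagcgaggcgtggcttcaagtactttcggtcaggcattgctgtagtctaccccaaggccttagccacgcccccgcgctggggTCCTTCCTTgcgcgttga
Rplp2: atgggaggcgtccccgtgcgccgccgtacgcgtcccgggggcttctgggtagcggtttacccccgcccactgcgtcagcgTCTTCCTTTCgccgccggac
Rps9: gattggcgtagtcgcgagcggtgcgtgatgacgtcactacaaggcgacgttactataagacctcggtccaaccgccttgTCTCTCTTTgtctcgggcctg
Rpl3l: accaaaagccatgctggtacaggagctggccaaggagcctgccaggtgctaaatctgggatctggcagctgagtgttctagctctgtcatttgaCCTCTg
They lie at chr11:114668495-114668594, chr14:24490593-24490692, chr7:141447566-141447665, chr7:3703956-3704055 and chr17:24727741-24727840, all on the plus strand. Rpl38, Rps24, Rplp2 and Rps9 have runs of 10, 9, 10 and 9 pyrimidines beside the start. Rpl3l has a run of 5 in the printed stretch and a run of at least 8 outside it, in the wider window searched next. A run of at least 8 C or T between 25 bases before and 50 after the start was found in 76.6% of the 64 members and in 30.4% of the 27025 promoters in the table. CCGGAAG, searched on both strands over 250 bases before to 50 after the start, was found in 39.1% of the members and 9.93% of all promoters. The E-box CACGTG, which BMAL1 and CLOCK bind, was found in 9.38% of the members and 8.09% of all promoters. These are matches of letters and were not tested as binding sites.

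All values below are FPKM or differences of deposited log2 FPKM. FPKM are fragments scaled by the exon length of the gene and by a total for the library. Reads recovered from the steps of the low values came to 21.1 to 36.1 M per library, and members took 1.17% to 2.36% of them. The recovered reads were 0.839 to 1.52 times the total behind the deposited values, so that total was not a plain count of these reads. FPKM divides by all exons of a gene, and this length was 1 to 9.80 times (median 2.36) that of the messenger, so levels of different members are not strictly comparable. Taken as standing apart were 3 libraries: RE-RE sham ZT0 library 1, RE-RE sham ZT12 library 3 and RE-RE 6-OHDA ZT0 library 2. Their groups hold 2 libraries each, so a group alone cannot show which one stands apart. The members' medians were 6.90 and 7.36 log2 FPKM in these sham libraries and 6.04 and 6.31 in their partners. WT sham muscle had 6.26 to 6.60. RE-RE 6-OHDA ZT0 library 2, labelled injected, had summed macrophage markers of 20.8 FPKM. RE-RE sham muscle had 33.1 to 102 FPKM and the other injected RE-RE libraries had 92.4 to 356 FPKM. Results on RE-RE muscle are therefore given with and without these 3 libraries. All 14 fibre markers were above 0 in every library and summed to 46527 to 90260 FPKM.

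Averaged over all libraries the highest level was that of Rplp1, a stalk protein of the large subunit, with 570 FPKM, followed by Rpl4 with 436, the stalk base Rplp0 with 407, Rps26 with 325 and Rps3a1 with 324. The lowest were Rpl24 with 0.541, Rpl22l1 with 6.16, Rps19bp1 with 8.77, Rps28 with 11.4 and Rps19 with 14.2. The low value of Rpl24, a large-subunit protein present in every ribosome, comes with a limit of counting: 47.0% of its exon bases are also exons of Gm28037 on the same strand. The 66 ribosomal protein pseudogenes in the table had a median level of 1.67 FPKM, against 82.5 FPKM for the members, and the highest of them had 70.1 FPKM.

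In WT muscle the members were lower after 6-OHDA with little spread among them on the deposited scale, where the median of all genes moved by -0.04. The median difference between injected and sham muscle was -0.31 (log2, mean of both times), a fall of 19.5%, with quartiles of -0.38 and -0.22, and 83 of 84 members had an estimate below 0, against 54.4% of all genes. The sign depended on the scaling: with each library scaled to its own total of recovered reads the members' median was 0.02 and that of all genes 0.29, and with quantile normalization the medians were -0.08 and -0.07. Single-gene results were followed over all comparisons. With limma-voom on recovered reads scaled by trimmed means (TMM), 110 were the same as deposited and 1 was weaker. With own totals 78 were the same, 23 weaker, 1 stronger and 9 reversed. With quantile normalization 96 were the same, 8 weaker, 1 stronger and 6 reversed. Large-subunit and small-subunit members had medians of -0.32 and -0.31.

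**Figure D1:**
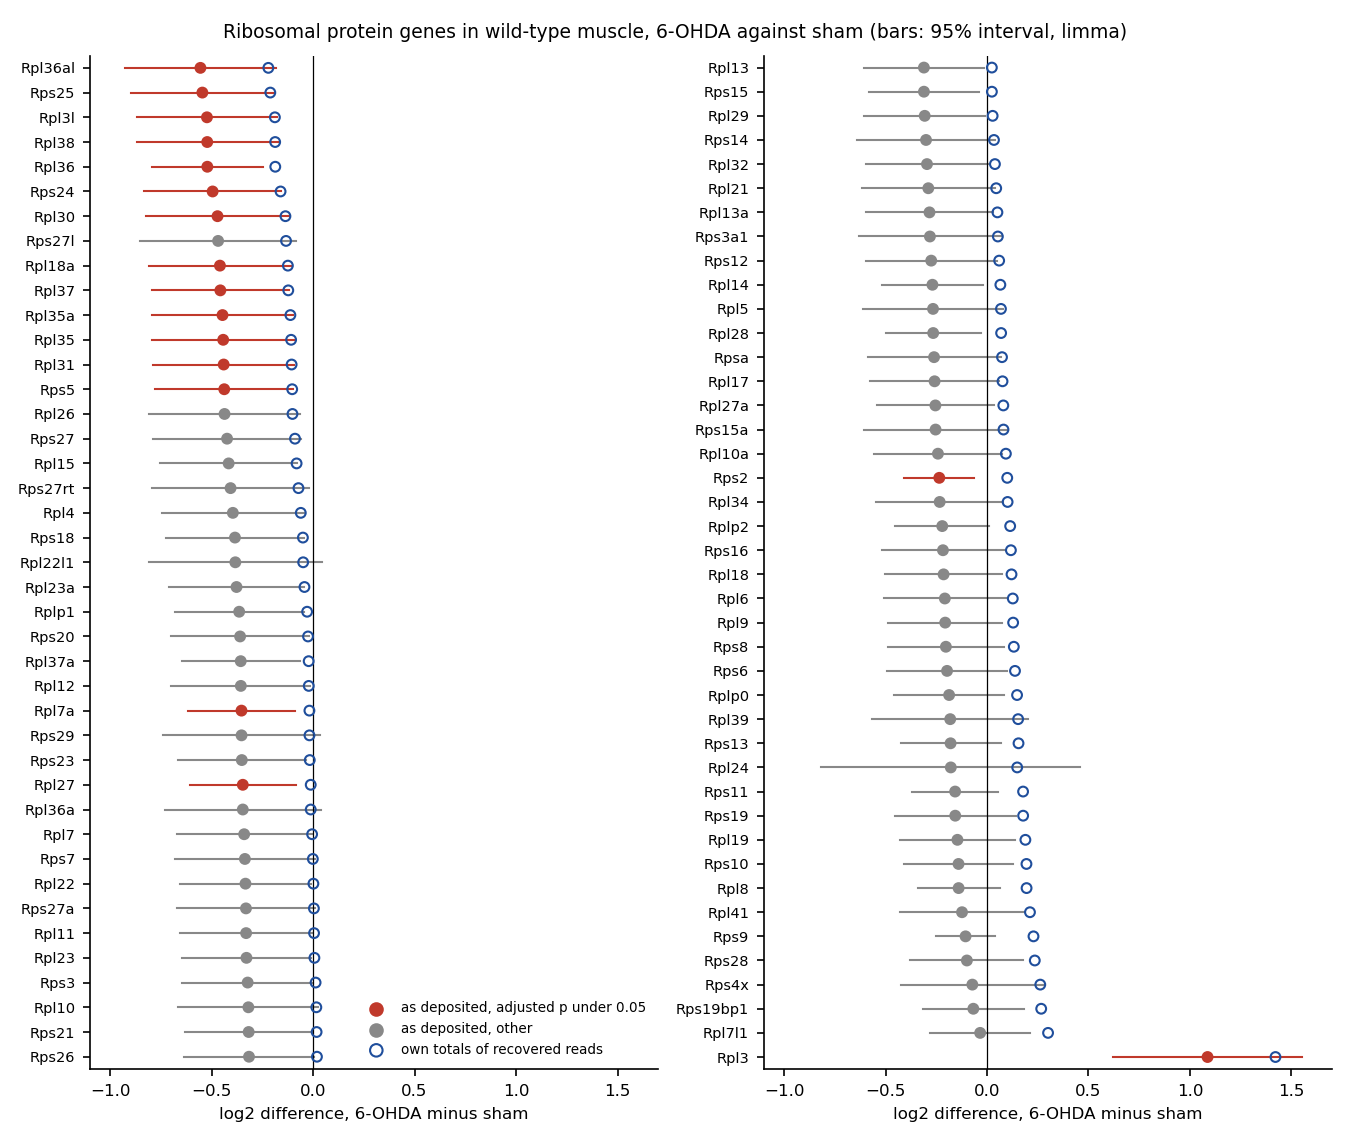
Difference between 6-OHDA and sham muscle of WT mice for 83 of the 84 members (log2 of deposited FPKM, mean of ZT0 and ZT12, n = 8 against 7 libraries), with the limma 95% interval as bars, red where the adjusted p is under 0.05, and open circles for libraries scaled to their own totals; 82 of those plotted lie below 0 on the deposited scale and Rpl3 alone lies above, at 1.09. The medians over all 84 members were -0.31 as deposited and 0.02 with own totals.

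Tested gene by gene over 12820 genes with limma and a Benjamini-Hochberg adjusted p under 0.05, 17 of the 84 members fell and 1 rose. Of all genes 34.8% passed, 18.8% higher and 15.9% lower, so the members' 20.2% of falls is near the background of falls and the rise of a single member lies under that of rises. An unadjusted p under 0.05 was reached by 41 of 84 members and by 5911 of the 12820 genes. The spread behind this test was pooled over all 8 groups, and RE-RE libraries varied more: the members' median residual SD was 0.168 in WT and 0.522 in RE-RE muscle. With the WT libraries fitted alone 68 members fell and 1 rose, while 3546 and 3094 of all genes did. With own totals of recovered reads none fell and 2 rose (Rpl3 and Rpl7l1), while 467 of all genes fell and 5112 rose. The count also depended on single libraries: it was 18 in all, 5 without sham ZT12 6 or 6-OHDA ZT0 1, 6 without 6-OHDA ZT12 6, 8 without sham ZT0 3 or 4, 9 without sham ZT12 5, 6-OHDA ZT0 2 or 6-OHDA ZT12 8, 10 without sham ZT12 7 and 11 without 6-OHDA ZT12 7, while 26.0% to 37.0% of all genes passed when each WT library was left out in turn.

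Without a model, 16 members had all 8 injected WT libraries below all 7 sham libraries, among them Rpl7a, Rpl13, Rpl15, Rpl23a, Rpl27, Rpl36, Rpl36al, Rplp1, Rps7, Rps15, Rps20, Rps24, Rps25, Rps27 and Rps27l. The 16 made up 19.0% of the members against 5.87% of all genes. In the other direction Rpl3 alone separated the groups, against 8.03% of all genes.

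Length moved with this result. Members have short messengers (median 925.5 bases, against 2793 for all genes), and the 1750 other genes with a messenger under 1000 bases had a median difference of -0.29, against -0.02 for the 10935 longer ones. Its part in the members' difference was not tested. By GC content of the messenger, the 5 members under 45% GC had a median of -0.38, the 58 between 45 and 55% had -0.31 and the 21 above had -0.31. Members that share at least 50% of their 100-base stretches with other genes, mostly pseudogenes, had the same median (-0.31, 37 members) as the rest (-0.32, 47 members).

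By the letters at the start, the median was -0.32 in the 49 members with a run of at least 8 and -0.22 in the 15 without one. It was -0.35 in the 14 with a C followed by 4 pyrimidines exactly at the annotated start and -0.30 in the 50 others. With CCGGAAG it was -0.32 and without it -0.31, and in the 6 members with an E-box it was -0.25. These are descriptions with no test.

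The large-subunit proteins Rpl36al and Rpl36 and the small-subunit protein Rps25 separated the 2 sets of libraries. Rpl36al ranged over 53.6 to 76.4 FPKM (median 59.3) in sham muscle and 32.8 to 48.2 FPKM (median 44.1) after injection, a log2 difference of -0.56 (limma adjusted p = 0.0230). Rpl36 ranged over 197 to 220 FPKM in sham and 119 to 194 FPKM in injected muscle (-0.52, limma adjusted p = 0.00651). Rps25, which some viral and cellular messengers need for initiation at internal sites, ranged over 236 to 334 FPKM in sham and 165 to 228 FPKM in injected muscle (-0.55, limma adjusted p = 0.0190). Rpl38, known for its role in translating Hox messengers, overlapped: 41.9 to 51.8 FPKM in sham muscle and 28.6 to 49.0 FPKM after injection (-0.52, limma adjusted p = 0.0217). None of these 4 passed with own totals, with differences of -0.22, -0.19, -0.21 and -0.19 in the order named. Rps25 also missed the threshold without sham ZT12 6 (-0.49, limma adjusted p = 0.0563), and Rpl36al missed it without sham ZT0 3, sham ZT12 6 or 6-OHDA ZT0 1 (-0.50, -0.51 and -0.50).

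Rpl3 rose while its muscle paralog Rpl3l fell. In WT sham muscle Rpl3 had 14.4, 19.2, 14.8 and 19.3 FPKM at ZT0 and 17.7, 18.2 and 14.9 FPKM at ZT12. After injection it had 47.2, 35.8, 50.2 and 33.8 FPKM at ZT0 and 29.0, 39.5, 30.9 and 26.2 FPKM at ZT12. Every injected library was above every sham library, and the mean went from 16.9 ± 2.15 (SD, n = 7) to 36.6 ± 8.57 FPKM (SD, n = 8). The log2 difference was 1.09 (SE 0.22, limma adjusted p = 0.00228), a 2.12-fold rise. It passed under all 26 alternatives, between 1.03 and 1.42.

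Rpl3l had the higher FPKM of the pair in every library. How reads with several positions were handled is not known, and 79.4% of the Rpl3 stretches recur in pseudogenes. The level of Rpl3 beside that of Rpl3l is therefore uncertain. In WT sham muscle it had 340, 342, 308 and 286 FPKM at ZT0 and 302, 289 and 355 FPKM at ZT12. After injection it had 136, 228, 181 and 224 FPKM at ZT0 and 304, 191, 259 and 288 FPKM at ZT12. The ZT0 libraries did not overlap, and at ZT12 1 of the 4 injected libraries lay within the sham range. The log2 difference was -0.52 (SE 0.17, limma adjusted p = 0.0212), and -0.19 with own totals (limma adjusted p = 0.257) and with quantile normalization (limma adjusted p = 0.318). It also missed the threshold when 1 of 3 single libraries was left out (sham ZT12 7, 6-OHDA ZT0 1 or 6-OHDA ZT12 6, in this order), where the difference was -0.48, -0.45 and -0.45 (limma adjusted p = 0.0557, 0.0506 and 0.0510).

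The ratio of the 2 within a library needs no scaling between libraries. Rpl3l stood 14.8 to 23.7 times above Rpl3 in WT sham muscle and 2.89 to 11.0 times above it after injection, with no overlap. The log2 ratio was 1.61 lower, or 3.05-fold, by 2.05 at ZT0 and 1.17 at ZT12 (exact two-sided permutation within times, p = 0.000408, the smallest the design allows, and 0.000816 adjusted over 2 tests). Counted per length of messenger, Rpl3 made up 7.65% to 11.7% of the pair in sham muscle and 15.2% to 40.5% after injection. The absolute ratios and shares carry the limit on the level of Rpl3 given above.

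**Figure D2:**
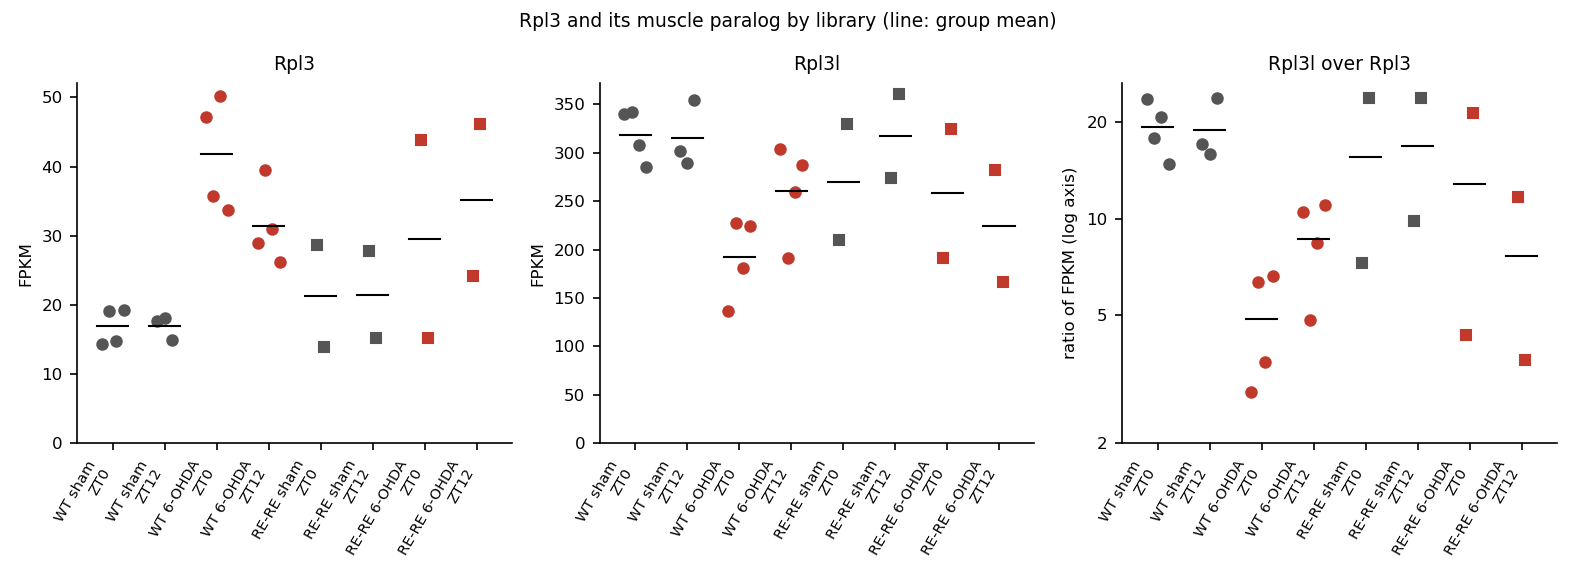
Levels of Rpl3 and Rpl3l (FPKM) and their ratio (log axis) in each of the 23 libraries by genotype, treatment and time, with a line at the group mean. In WT muscle the ratio lies at 14.8 to 23.7 in sham and 2.89 to 11.0 in injected libraries, and in RE-RE muscle both treatments span low and high ratios.

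A pseudogene with the Rpl3 sequence, Rpl3-ps1, moved with it, from a mean of 1.605 to 3.03 FPKM in WT muscle (0.91, limma adjusted p = 0.00949). Reads of the 2 cannot be told apart over shared stretches. Rpl3l shares no such stretch.

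The elongation factor that brings aminoacyl-tRNA to the ribosome has a similar pair of forms, Eef1a1 in most cells and Eef1a2 in mature muscle and neurons. Eef1a1 was 168 ± 25.7 FPKM (SD, n = 7) in WT sham and 405 ± 102 FPKM (SD, n = 8) in injected muscle, ranging over 132 to 193 and 282 to 557 FPKM without overlap (log2 1.24, SE 0.25, limma adjusted p = 0.00213). It passed under the 26 alternatives run, between 1.16 and 1.61. Eef1a2 was 448 ± 62.1 and 450 ± 44.1 FPKM (0.01, limma adjusted p = 0.972). In RE-RE muscle Eef1a1 had 0.81 (limma adjusted p = 0.0739) and Eef1a2 rose by 0.79 (adjusted p = 0.0487), and without the 3 libraries that stand apart the values were 1.71 and -0.036.

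In the other 4 pairs of paralogs no member rose on the deposited scale, and Rpl7l1 rose by 0.30 with own totals (limma adjusted p = 0.0299). Rpl22 had a difference of -0.33 (limma adjusted p = 0.0970) and Rpl22l1 of -0.38 (adjusted p = 0.149). Rps27 had -0.42 (adjusted p = 0.0632) and Rps27l, a target of p53, -0.47 (adjusted p = 0.0550). Rpl36a, on the X chromosome, had -0.35 (adjusted p = 0.147) beside the fall of its copy Rpl36al. Rpl7 had -0.34 (adjusted p = 0.1004), and Rpl7l1, which acts in the assembly of the large subunit, ranged over 12.6 to 17.5 FPKM in sham and 12.6 to 16.3 FPKM in injected muscle (-0.03, adjusted p = 0.847). Rps19bp1 also stayed near 0 (-0.07, adjusted p = 0.686).

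Members were also set against their own median, a scaling chosen after the data were seen. Rpl3 then rose by 1.40 (limma adjusted p = 0.00072) and Rpl7l1 by 0.28, Rps4x by 0.25, Rpl41 by 0.19 and Rpl19 by 0.17. Rpl36al and Rps25 fell by 0.24 and 0.23. On this scale the median of all genes was 0.28 and 29.5% of all genes passed.

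Outside the symbol rule, Fau, a fusion that yields Rps30, had -0.13 (adjusted p = 0.460) and Rack1, a small-subunit scaffold, had -0.23 (adjusted p = 0.210). Both lay above 0 with own totals, at 0.21 and 0.11.

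At ZT0 alone Rpl3 rose by 1.29 (limma adjusted p = 0.0106) and Rpl36 and Rpl3l fell by 0.60 and 0.75 (adjusted p = 0.0232 and 0.0236), while 23.8% of all genes passed, 13.6% higher and 10.2% lower. The members' median was -0.25, and 0.16 with own totals (all genes 0.36), where the 3 members that passed rose. The count at ZT0 was 1, with none lower, when sham ZT0 1, sham ZT0 3 or 6-OHDA ZT0 1 was left out (5.45% to 13.0% of all genes), and 2 when 6-OHDA ZT0 2 or 3 was (18.5% and 13.1%). At ZT12 no member passed by limma (10 had an unadjusted p under 0.05) and 0.0156% of all genes did. The members' median at ZT12 was -0.36, and the estimates were 0.88 for Rpl3 (adjusted p = 0.158) and -0.29 for Rpl3l (adjusted p = 0.486). With the compared libraries alone 50 members passed at ZT12, 49 of them lower, where 26.4% of all genes passed and 11.1% were lower. The change of the effect between times was tested and no member passed (none had an unadjusted p under 0.05), with 0.0078% of all genes called.

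**Figure D3:**
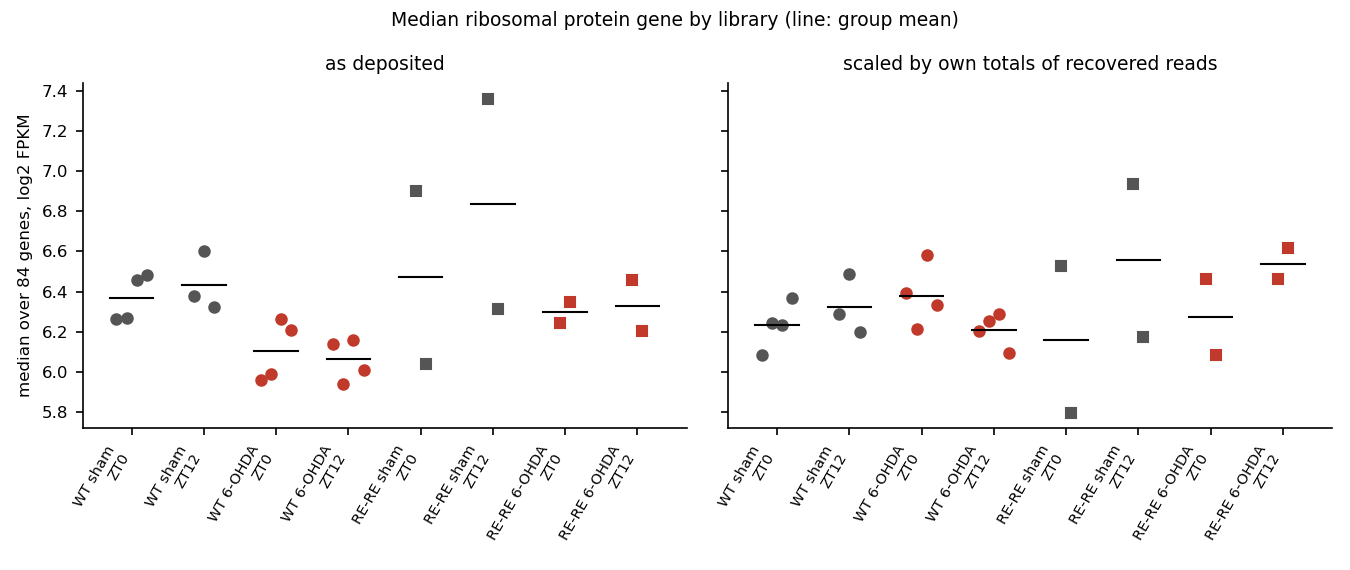
Median log2 FPKM of the 84 members in each library by group (line: group mean), as deposited and with libraries scaled to their own totals of recovered reads. As deposited the WT libraries lie at 6.26 to 6.60 in sham and 5.94 to 6.26 in injected muscle, with own totals at 6.09 to 6.49 and 6.09 to 6.58, and RE-RE sham spans 6.04 to 7.36.

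The medians by library show what the 2 scales do. As deposited, the members' median was 6.26 to 6.60 log2 FPKM in WT sham and 5.94 to 6.26 in injected muscle. On own totals the ranges were 6.09 to 6.49 and 6.09 to 6.58. The recovered reads, divided by the library total behind the deposited values, came to 1.15 to 1.32 in WT sham and 0.839 to 1.08 in injected libraries. Mitochondrial transcripts took 15.3% to 21.2% and 7.31% to 15.3% of the reads, in this order. The part of these shifts in the members' difference was not tested.

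In RE-RE muscle the median of the members after 6-OHDA was -0.34 (mean of both times, with all genes at -0.02), and 80 of 84 estimates lay below 0, against 51.2% of all genes. It was 0.05 with own totals, where that of all genes was 0.37, and 0.08 without the 3 libraries that stand apart, where that of all genes was -0.10. Rplp2, a stalk protein that recruits elongation factors, rose by 0.43 (SE 0.15, limma adjusted p = 0.0431). Rpl4 and Rps2 fell, by 0.63 (adjusted p = 0.0462) and 0.31 (adjusted p = 0.04999, just under the threshold). These 3 of 84 stand beside 26.9% of all genes. The 4 sham and 4 injected libraries separated for no member, where 1.92% of all genes separated downward and 2.7% upward.

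None of the 3 held without the libraries that stand apart or with RE-RE libraries fitted alone. Rplp2 had 26.2 and 37.9 FPKM at ZT0 and 30.9 and 43.8 FPKM at ZT12 in sham muscle, and 40.0 and 46.0 FPKM at ZT0 and 48.4 and 49.5 FPKM at ZT12 after injection. Rpl4 had 736, 415, 1023 and 419 FPKM in sham and 364, 477, 401 and 325 FPKM in injected muscle. The sham libraries that stand apart are the lowest of their time for Rplp2 and the highest for Rpl4. Without the 3 libraries the difference was 0.12 for Rplp2 (limma adjusted p = 0.601), -0.20 for Rpl4 (adjusted p = 0.385) and -0.30 for Rps2 (adjusted p = 0.0842). Single libraries decided the count: without sham ZT12 library 4 it was 68 members (49.2% of all genes) and without sham ZT0 library 2 it was 61 (44.1% of all genes), and it was 0 when sham ZT0 1, sham ZT12 3, 6-OHDA ZT0 1 or 6-OHDA ZT12 4 was left out (0.218% to 2.00% of all genes). It was 9 without 6-OHDA ZT0 2 (42.6% of all genes) and 10 without 6-OHDA ZT12 3 (35.1%).

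Neither Rpl3 nor Rpl3l passed in RE-RE muscle with all libraries. Rpl3 had 28.7, 13.9, 27.8 and 15.2 FPKM in sham and 43.9, 15.2, 24.1 and 46.1 FPKM in injected muscle. Both sham libraries that stand apart were high and the injected one was low, and the groups overlapped (0.54, SE 0.30, limma adjusted p = 0.170). Rpl3l had 209, 330, 274 and 361 FPKM in sham and 191, 325, 282 and 167 FPKM in injected muscle (-0.31, adjusted p = 0.288). The ratio of Rpl3l to Rpl3 was 7.30, 23.8, 9.84 and 23.8 in sham and 4.36, 21.4, 11.7 and 3.62 in injected libraries. The log2 ratio was 0.84 lower after injection (exact two-sided permutation p = 0.389, where 36 arrangements allow no p under 0.0556). Without the 3 libraries it was 2.16 lower, where too few arrangements are left for a test. In the 5 libraries left the difference was 1.40 for Rpl3 (limma adjusted p = 0.00267) and -0.76 for Rpl3l (adjusted p = 0.0394), with no other member past the threshold. In that fit 3 of the 4 RE-RE groups hold 1 library, which is assumed to vary like the other groups, so the spread is nearly all that of WT muscle. The libraries left out were chosen after their values were seen and are the sham libraries with the most Rpl3 and an injected one with little, so these p-values are no independent support.

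With all libraries the effect of 6-OHDA was not shown to differ between the genotypes for any member. No member passed the limma test of the difference, 1 had an unadjusted p under 0.05, and 0.0702% of all genes passed. The estimate for Rpl3 was -0.55 (RE-RE minus WT, 95% interval -1.33 to 0.23, adjusted p = 0.479), and 0.31 without the 3 libraries. The estimate for Rpl3l was 0.22 (95% interval -0.37 to 0.80). Rplp2 had the smallest p, with 0.65 (95% interval 0.26 to 1.04, adjusted p = 0.178). It was the 1 member that passed when RE-RE sham ZT0 2 or sham ZT12 4 was left out (0.78 in both, limma adjusted p = 0.0240 and 0.0248), where 7.95% and 8.67% of all genes passed. With all libraries Rps9 followed with 0.21 (adjusted p = 0.403).

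Every RE-RE sham mouse (10 to 11 weeks) was younger than every WT sham mouse (12 to 18 weeks), so genotype and age cannot be told apart in sham muscle. Between the RE-RE and WT sham groups the members' median was 0.26 and 79 of 84 estimates lay above 0, against 52.6% of all genes, but no member passed by limma (13 had an unadjusted p under 0.05) and 9.91% of all genes did. Closest to the threshold were Rpl8 (0.33, limma adjusted p = 0.0697), Rplp0 (0.44, adjusted p = 0.0730), Rpl14 (0.39, adjusted p = 0.0809) and Rplp2 (-0.36, adjusted p = 0.0831). With own totals the median was 0.09 (all genes -0.14), and without the 3 libraries it was -0.21. Without RE-RE sham ZT0 2 the count was 41 (33.7% of all genes) and without RE-RE sham ZT12 4 it was 60 (37.6% of all genes), and these fits leave 1 sham library at that time. In injected muscle of the 2 genotypes the median was 0.20, no member passed (4 had an unadjusted p under 0.05), and 0.226% of all genes did.

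The 2 RE-RE sham libraries of each time differed from each other across the family. At ZT0 82 of 84 members were higher in library 1 than in library 2, by a median of 0.92 or 1.89-fold, while 49.2% of all genes were higher. At ZT12 82 of 84 were higher in library 3 than in library 4, by a median of 1.05 or 2.07-fold, against 52.0% of all genes. The same 2 members were lower at both times: Rplp2 by 0.53 and 0.50, and Rpl3l by 0.66 and 0.40. Rps9, at 0.04 and 0.15, and Rps2, at 0.04 and 0.24, were almost level. Within each time the pair holds a single library of each kind, so there is no test.

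**Figure D4:**
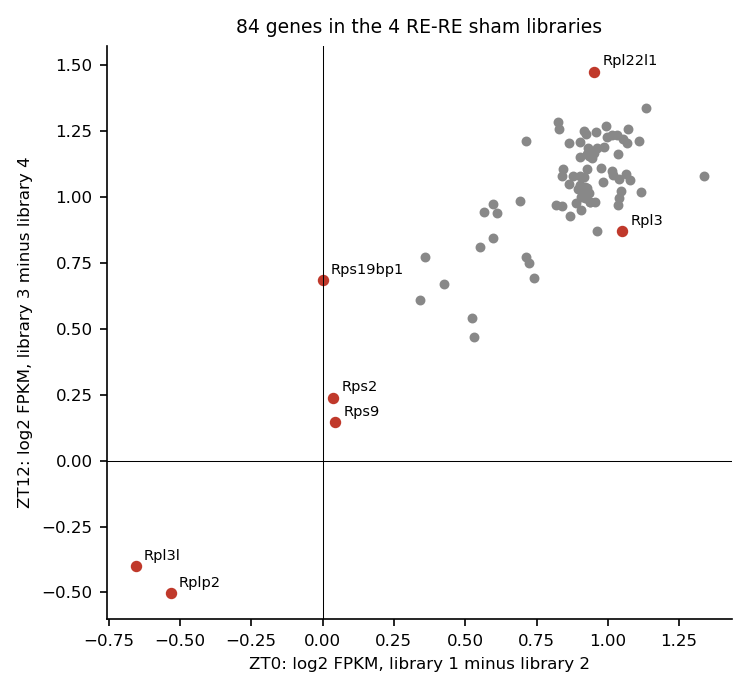
Difference between the 2 RE-RE sham libraries of one time for each member (log2 FPKM), ZT0 on the x axis and ZT12 on the y axis. Nearly all members lie near 0.92 and 1.05, while Rplp2 and Rpl3l lie below 0 on both axes and Rps9 and Rps2 near 0; Rps19bp1, Rpl22l1 and Rpl3 are labelled as well.

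GC content moved with the same libraries. Other genes under 45% GC had medians of 0.53 and 0.56 in these 2 pairs and other genes of at least 55% GC had -0.61 and -0.55. Members of every GC class were higher: those under 45% had 0.95 and 1.25, those between 0.92 and 1.06, and those of at least 55% had 0.90 and 0.98. Other genes with messengers under 1000 bases had 0.32 and 0.31. Mitochondrial transcripts took 27.6% and 23.1% of the reads in the high libraries and 15.4% and 19.6% in their partners. Macrophage markers summed to 77.3 and 102 FPKM there and 33.1 and 33.5 FPKM in the partners. GC content also moved with the group comparisons of RE-RE muscle. After 6-OHDA other genes under 45% GC had a median of -0.42 and those of at least 55% GC had 0.41. Members of these classes had -0.50 and -0.32. Between the RE-RE and WT sham groups the other genes had 0.29 and -0.29 and the members 0.38 and 0.22, in the same order. The part of any of these in the members' differences was not tested.

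Time of day gave no member past the test in any group. Between ZT0 and ZT12 the members' median moved by 0.05 in WT sham (no member with an unadjusted p under 0.05 by limma, 0.647% of all genes passed) and by -0.05 in injected WT muscle (again none, 0.671% of all genes). In WT sham muscle Rps28 came closest (-0.34, limma adjusted p = 0.908). In injected WT muscle Rpl3l was higher at ZT12 by 0.45 (adjusted p = 0.730) and Rpl3 lower by 0.41 (adjusted p = 0.866). In RE-RE sham muscle the median was 0.29 and 83 of 84 members lay above 0, against 45.4% of all genes, with 2 at an unadjusted p under 0.05 and 0.0546% of all genes called. Rpl28 came closest there, with 0.56 (limma adjusted p = 0.806). In injected RE-RE muscle the median was 0.03 (none with an unadjusted p under 0.05, 0.109% of all genes called), with Rps12 at 0.37 (adjusted p = 0.585).

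Genes that build and use ribosomes were counted in the same comparison of WT muscle. Of 68 genes of ribosome biogenesis 16 fell and none rose, with a median of -0.19, and with own totals none fell and 13 rose, with a median of 0.15. On the deposited scale Nop10, a protein of the box H/ACA particles that modify ribosomal RNA, fell by 0.61, Las1l, which cuts the spacer between ribosomal RNAs, by 0.47, the late small-subunit nuclease Nob1 by 0.45 and the box C/D protein Nop56 by 0.36. Of 16 genes of RNA polymerase I and 5S transcription 4 fell, with a median of -0.19, and with own totals 3 rose, with a median of 0.15. Those that fell include Taf1a and Taf1d of the polymerase I selectivity factor, by 0.47 and 0.38, and Maf1, a repressor of polymerase III, by 0.47.

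Of 34 initiation factors 10 fell and 1 rose (median -0.28), and with own totals 2 fell and 9 rose (median 0.056). Eif1, which guards the choice of the start codon, fell by 0.82, Eif2s2 by 0.73 and Eif5b, which joins the subunits, by 0.49, and the poly(A)-binding protein gene Pabpc1, itself a TOP messenger, rose by 0.46. Of 26 other genes with a TOP start 2 rose and 6 fell (median -0.22), and with own totals 6 rose (median 0.11). Of 10 elongation factors 1 rose and 2 fell (median -0.13), with own totals 4 rose (median 0.21), and with quantile normalization 3 rose and 1 fell (median 0.098). Of 25 genes that control ribosome production 2 rose and 4 fell (median -0.10), and with own totals 7 rose (median 0.23). As deposited, Mxd4, a partner of Max that opposes Myc, rose by 0.62 and the cell cycle inhibitor Cdkn1a by 1.17, while Rheb, the activator of mTOR, fell by 0.42 and the mTOR inhibitor Akt1s1 by 0.39. As deposited, these counts stand against 18.8% of all genes higher and 15.9% lower, and with own totals against 39.9% higher and 3.64% lower. The shares with quantile normalization are not given here.

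Mitochondrial ribosomal proteins, which share no subunit with the cytosolic ribosome, had nearly the same median as the members, -0.33. Of 79, 34 fell and none rose, and with own totals 6 fell and 12 rose (median 0.0076). Mrps21 fell by 0.76, Mrpl33 by 0.68, Mrpl23 by 0.67 and Mrps15 by 0.56. In RE-RE muscle 22 of the 68 biogenesis genes fell and 1 rose (median -0.32), 12 of 34 initiation factors fell and 1 rose (-0.32), and 14 of 79 mitochondrial ribosomal proteins fell (-0.40), beside 15.0% of all genes lower. With own totals the counts in RE-RE muscle were 2 lower and 10 higher, 4 lower and 9 higher, and 2 lower and 10 higher, in this order, beside 3.71% of all genes lower and 31.1% higher.

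Markers of other cells moved with treatment in the same libraries. In WT muscle 14 of 16 macrophage genes rose, Cd68 by 2.76 and Lyz2 by 3.05, and their summed level was 28.4 to 73.7 FPKM in sham and 163 to 566 FPKM in injected muscle, with Trem2 at 0 in some libraries. Of 12 genes of regenerating muscle and satellite cells 9 rose, Myh3 by 3.09 and Myog by 1.80, and the list summed to 179 to 525 and 488 to 982 FPKM, with Mymk, Mymx and Chrng at 0 in some libraries. Of 12 matrix genes 11 rose, Col3a1 by 2.50. Fibre genes summed to 73771 to 89188 FPKM in sham and 46527 to 67965 FPKM in injected muscle. On the deposited scale 6 of 14 fell and 4 rose, with own totals 4 fell and 4 rose, and with quantile normalization 5 rose and none fell. As deposited, the counts of these lists stand against 18.8% of all genes higher and 15.9% lower, and the shares with quantile normalization are not given here. None of the T, B and NK cell markers reached the level for testing. In bulk muscle fewer cells of a type and less RNA per cell cannot be told apart, and the part of these cells in the values of Rpl3, Eef1a1 and the other members was not tested.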

How the data were processed

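The members and gene lists were chosen with earlier results of these data known. Per the submitters' processing notes, the authors used HISAT2 (2.1.0) with the genome GRCm38 and featureCounts (1.6.2), and the notes also name edgeR (3.30.0), Trim Galore (0.5.0) and FastQC (0.11.8). The authors deposited 1 table of log2 FPKM, log2(FPKM + 0.01); the handling of reads with several positions and any factor between libraries are not given in the sources used here. Symbols, positions and lengths came from GENCODE M21.

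The 12820 genes that reached 1 FPKM in 2 or more libraries were fitted as deposited with limma 3.58.1 (R 4.3.3), 1 mean for each of 8 groups, trended eBayes, and Benjamini-Hochberg adjustment over these genes (threshold 0.05). All 84 members passed the filter. Reads were recovered from the steps of low values, of which 86.5% to 94.8% were whole within 0.1 reads (values up to 20 reads), so depth is an estimate. FPKM means and SD are on the linear scale. The fit, the recovery of depth and the permutation test were tested on simulated data. Tables used python 3.11.15, numpy 2.4.6 and pandas 2.3.3, and figures matplotlib 3.10.9.

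In each comparison with called members the 6 largest rises and falls were named, or with fewer than 5 called the 5 of smallest p, beside paralog pairs, the 5 highest and lowest levels, members that were no subunit or moved against most, and up to 4 called genes of each list. Alternatives were log2(FPKM + 1), 2 other filters, quantile normalization, own totals, limma-voom, array weights, age, compared libraries alone, 3 libraries left out, a replicate block and each library left out. Results for some genes are not reported here. No library held values identical to another.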

Additional observations from a re-analysis of the deposited data

Results flagged for a closer look

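Of 111 groups of 4 libraries examined, 5 held a member value far from the other 3 by Dixon's 95% critical value, which by its construction is passed by chance in about 5% of groups. At ZT0 in WT sham muscle Rpl14 was 118 FPKM in library 3 against 129, 131 and 130 FPKM, and in injected WT muscle it was 121 FPKM in library 3 against 110, 110 and 108 FPKM. Rplp2 was 38.7 FPKM in WT sham ZT0 library 4 against 44.2, 44.1 and 44.6 FPKM. Rps27l was 57.0 FPKM in WT sham ZT0 library 3 against 47.5, 46.3 and 47.7 FPKM. Rps28 was 14.6 FPKM in WT 6-OHDA ZT0 library 4 against 9.57, 9.88 and 10.4 FPKM.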

How the results depend on the processing

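On the mean of both times in WT muscle 18 members passed. Quantile normalization gave 6 (1 higher, 5 lower), own totals 2 (both higher), array weights 69, compared libraries alone 69, leaving out the 3 libraries that stand apart 67, and scaling by the members' median 8 (5 higher, 3 lower). At ZT0 (3 passed) own totals gave 3, all higher, array weights 33, compared libraries alone 15, without the 3 libraries 23 and the members' median 1. At ZT12 (0 passed) array weights gave 65, compared libraries alone 50 and without the 3 libraries 25. In RE-RE muscle (3 passed) quantile normalization gave 2 and own totals 3, all higher, and array weights, age, compared libraries alone and the members' median gave 0. RE-RE minus WT in sham muscle (0 passed) gave 1 without the 3 libraries, and time in injected WT muscle (0 passed) gave 2 with array weights. Scaled by the members' median, 29.5% of all genes passed in WT muscle, 15.4% at ZT0 and 6.67% in RE-RE muscle. Shares of all genes with array weights and without the 3 libraries are not given here. The counts with these settings are therefore no result about the members.

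Leaving out single libraries gave 5 to 22 members in WT muscle (5 without sham ZT12 library 6 or without 6-OHDA ZT0 library 1), 1 to 4 at ZT0, 0 to 68 in RE-RE, 0 to 60 between the sham groups, 0 to 1 for the difference between genotypes, and 0 in the other comparisons. The log2 ratio of Rpl3l to Rpl3 ranged over -1.70 to -1.48 in WT and -1.41 to -0.27 in RE-RE, and was -2.16 in RE-RE without the 3 libraries. Same-numbered libraries did not deviate together in WT muscle (correlations of -0.12 to 0.07). In RE-RE muscle the correlations were 0.10 at ZT0 and 0.17 at ZT12. With 2 libraries a group each time gives 1 value, too few to show whether the numbers pair them in some way. The RE-RE sham mice were 10 to 11 weeks old and the injected ones 12 to 18 weeks, so same-numbered RE-RE libraries came from different mice. Among same-numbered WT libraries the labelled ages were equal for number 7 alone. With a replicate block 17 members passed in WT muscle and 2 in RE-RE, which is no result about the members, as shares of all genes are not given here. The ratio was then -1.73 in WT (exact permutation p = 0.0156, the smallest these pairs allow). In RE-RE it was -0.84 (exact permutation p = 0.375), where so few pairs allow no p under 0.05.

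Signs of single genes turned as follows, and the cause was not tested. With own totals: Rpl22 0.0011, Rpl7l1 0.30, Fau 0.21 and Rack1 0.11 in WT, Rps2 0.12 at ZT0, Rps2 0.082 and Rpl3l 0.083 in RE-RE, and Rps2 over time -0.0020 in WT and 0.055 in RE-RE injected muscle. With quantile normalization: Rpl7l1 0.049 and Fau 0.10 in WT, Rps2 0.046 at ZT0, Rpl3l 0.011 at ZT12, Rps2 0.033 and Rpl3l 0.073 in RE-RE. With age: Eef1a2 -0.013 in WT. Without the 3 libraries, Eef1a2 was -0.036 in RE-RE. The difference between genotypes was then 0.048 for Rpl7l1, 0.31 for Rpl3, 0.079 for Rplp0 and -0.24 for Rpl3l, and that between the sham groups -0.0014 for Rpl14, -0.048 for Rpl5, -0.21 for Rpl3 and 0.13 for Rpl3l. With single libraries left out, Rpl7l1 ranged over -0.074 to 0.0049 and Eef1a2 over -0.068 to 0.090 in WT, Rpl3l over -0.30 to 0.028 between the sham groups, and Rpl14 over -0.045 to 0.90 and Rps20 over -0.056 to 1.16 over time in RE-RE sham.

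Injection and 6-OHDA share the same muscles, ages differ between groups, and RE-RE groups hold 2 libraries a time. In RE-RE muscle every sham mouse was younger than every injected one, so age and injection cannot be told apart there. Reads shared with pseudogenes cannot be assigned from FPKM.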
